A study of Mus musculus with 6 samples.

Results

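Colony stimulating factors are the secreted proteins that keep macrophages and neutrophils alive and drive their growth from marrow progenitors. The genes described here are 4 ligands (Csf1, Il34, Csf2 and Csf3) and 5 receptor chains (Csf1r, Csf2ra, Csf2rb, Csf2rb2 and Csf3r). They were chosen by symbol as a family, matched through their Ensembl identifiers, and are 9 of the 27263 genes in the files. RNA was sequenced from primary C57BL/6 mouse bone marrow stromal cells, sorted from tibia and femur as Sca-1+ CD29+ CD45− CD11b− and grown in α-MEM with 10% fetal bovine serum. One group of 3 libraries received rGCA at 50 nM and the other group of 3 received PBS, both for 3 days. The labels do not spell out GCA; as known of the study it is grancalcin, which binds calcium and is made by neutrophils and macrophages, and the r stands for recombinant. The labels give neither the age of the mice nor whether each replicate was its own animal or culture. The p-values therefore measure only the spread between these libraries, which may be technical.

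CSF1 (M-CSF) and IL-34 both bind CSF1R, a tyrosine kinase of the macrophage lineage, and marrow stroma is a known source of CSF1. CSF2 (GM-CSF) binds the alpha chain CSF2RA, which signals with a shared beta chain. Mice have a pair of beta chain genes: Csf2rb encodes the chain shared by the receptors for GM-CSF, IL-3 and IL-5, and Csf2rb2 encodes a chain used for IL-3. CSF3 (G-CSF) binds CSF3R, best known on neutrophils and their precursors.

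With GCA, 3 receptor chains rose: Csf2rb2 (1.56-fold), Csf3r (1.496-fold) and Csf2rb (1.25-fold). No member fell (0 also at an unadjusted p under 0.05, and 0 by limma-voom). Csf1r, Csf1, Il34, Csf2ra and Csf3 were tested and did not pass, and Csf2 was too low to test. The test was limma on log2(FPKM + 1) with p-values adjusted over the 11984 genes whose mean over the libraries reached 1 FPKM, and a gene passed at an adjusted p under 0.05. FPKM counts sequenced fragments scaled by the length of the gene's exons and the library's total. Of the 8 members tested, 3 were called higher, where 11.5% of all genes tested were called higher, 6.43% lower and 17.9% in either direction. Those calls were 1380 higher and 771 lower, and 1198 and 1027 after quantile normalization. The same 3 members were the ones whose groups did not overlap, which held for 38.5% of all genes tested.

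The library totals inferred from the deposited values were 17543509 to 18645932 fragments. Macrophage transcripts were present in every library despite the gate: Cd68 was at 601 to 1028 FPKM, Ptprc, which encodes CD45, at 12.0 to 14.5 and Itgam, which encodes CD11b, at 24.9 to 43.1. The stromal collagen Col1a1 was at 1087 to 1441 FPKM. GCA replicate 2 stood apart from the other GCA libraries in some myeloid genes, with Adgre1 (F4/80) at 420 FPKM. The other GCA libraries had 256 and 224 FPKM of it, and PBS libraries 330 to 382. In such bulk samples, fewer cells of a type and less RNA per cell cannot be told apart.

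**Figure D1:**
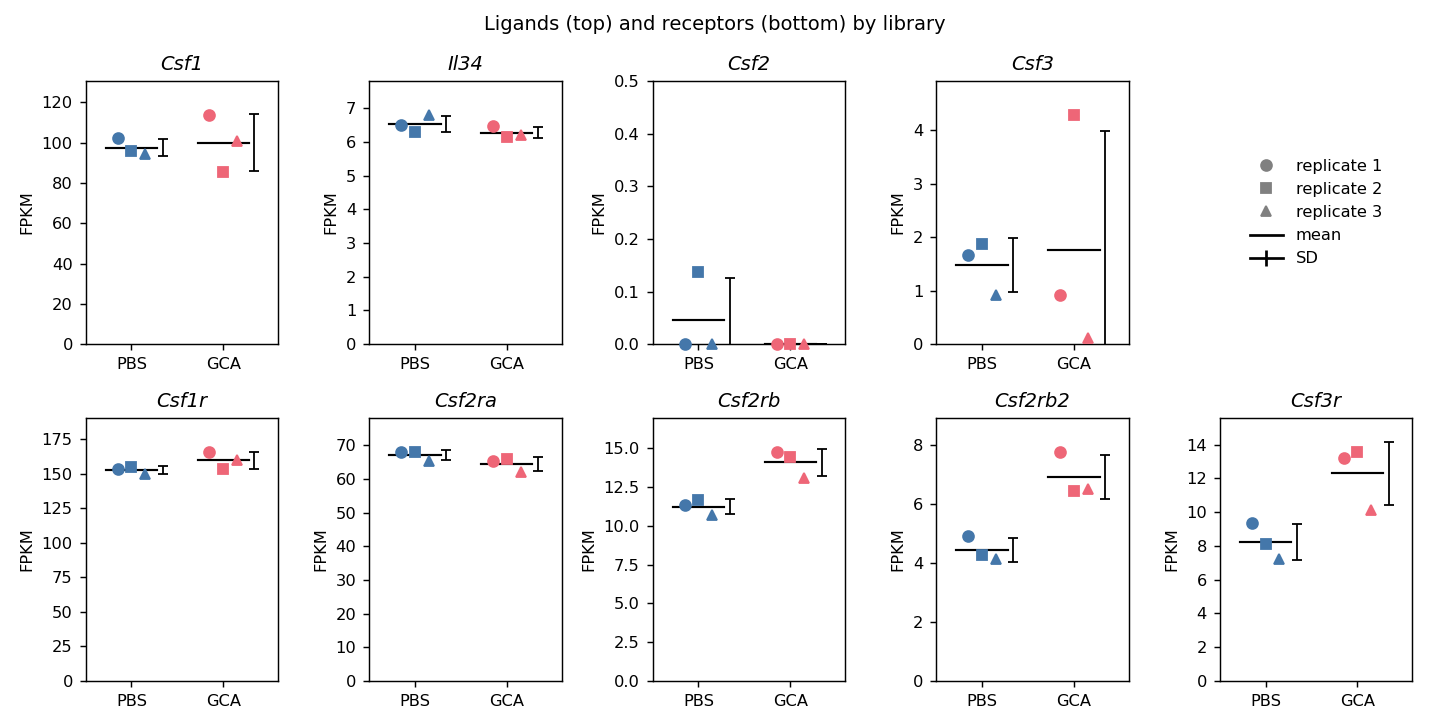
FPKM of each gene in every library, ligands in the top row and receptor chains in the bottom row, each axis starting at 0. Points are libraries, the line is the mean and the bar the SD of 3 libraries (lower arms end at 0). The GCA points of Csf2rb, Csf2rb2 and Csf3r lie above all PBS points, and Csf3 is scattered within GCA.

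In PBS the levels ran, from highest to lowest, Csf1r, Csf1, Csf2ra, Csf2rb, Csf3r, Il34, Csf2rb2, Csf3 and Csf2, and no neighbours in that order had overlapping values. In GCA the order was the same except that Csf2rb2 stood above Il34. There the values of Csf2rb overlapped those of Csf3r, and those of Csf2rb2 overlapped those of Il34. By mean level, Csf1r ranked 258 and Csf1 ranked 448 among all genes listed.

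Among the ligands, Csf1 (ENSMUSG00000014599, chromosome 3, 107741048 to 107760469, minus strand of GRCm38) was the most abundant. It was at 102, 95.6 and 94.4 FPKM in PBS replicates 1 to 3 and at 113, 85.2 and 101 in GCA replicates 1 to 3. The GCA libraries held both the highest and the lowest value, so the groups overlapped. The means were 97.5 ± 4.32 and 99.9 ± 14.2 FPKM (SD, n = 3 each), and the log2 fold change was 0.03 (95% interval −0.20 to 0.25, limma adjusted p = 0.884). Its direction was not fixed: the log2 fold change was −0.070 without GCA replicate 1 and −0.0063 after quantile normalization.

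Il34 (ENSMUSG00000031750, chromosome 8, 110741829 to 110805924, minus strand), the other ligand of CSF1R, was at 6.497, 6.30 and 6.79 FPKM in PBS and 6.46, 6.14 and 6.21 in GCA. These 6 values overlapped and stayed within a 1.11-fold range, and the log2 fold change was −0.05 (95% interval −0.17 to 0.07, limma adjusted p = 0.556). Csf1 was 13.9 to 17.6 times as abundant as Il34 per length, with overlapping ratios in the groups. Short stretches of its exons (75 and 22 bases) overlap the antisense genes Gm15895 and Gm15894.

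Csf2 (ENSMUSG00000018916, chromosome 11, 54247271 to 54249667, minus strand), which encodes GM-CSF, was at 0.138 FPKM in PBS replicate 2, from 2 fragments, and at 0 in the other 5 libraries. A count of 0 allows up to 3 fragments, or 0.201 to 0.214 FPKM in these libraries, for counting error alone. All 6 libraries lie at or under that limit, so no difference was detectable and no fold is given. The antisense gene Gm12223 overlaps 96 bases of its exons.

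Csf3 (ENSMUSG00000038067, chromosome 11, 98701263 to 98703629, plus strand), which encodes G-CSF, differed most between libraries of one group. It was at 1.67, 1.87 and 0.913 FPKM in PBS and 0.912, 4.28 and 0.114 in GCA. The highest library, GCA replicate 2, and the lowest, GCA replicate 3, were both treated and lay 37.6-fold apart. Their fragments were 106 (exact Poisson 95% interval 86.8 to 128) and 3 (0.619 to 8.77), so the gap exceeded counting error. The log2 fold change was −0.13 (95% interval −1.58 to 1.32, limma adjusted p = 0.91), and it was 0.38 without GCA replicate 3 and −0.75 without GCA replicate 2, neither past the threshold. By limma-voom on the recovered fragments it was −0.88 (SE 1.32, adjusted p = 0.707).

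Lcn2, which encodes the neutrophil and acute phase protein lipocalin 2, was set beside Csf3 after its values were seen. It was at 35.9, 44.01 and 32.1 FPKM in PBS and 10.8, 141 and 7.77 in GCA. As for Csf3, GCA replicate 2 was the highest library and GCA replicate 3 the lowest, and GCA replicates 1 and 3 had less Lcn2 than every PBS library. For Csf3, GCA replicate 1 and PBS replicate 3 had 23 fragments each. What the library GCA replicate 2 contributes to both genes was not tested.

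**Figure D2:**
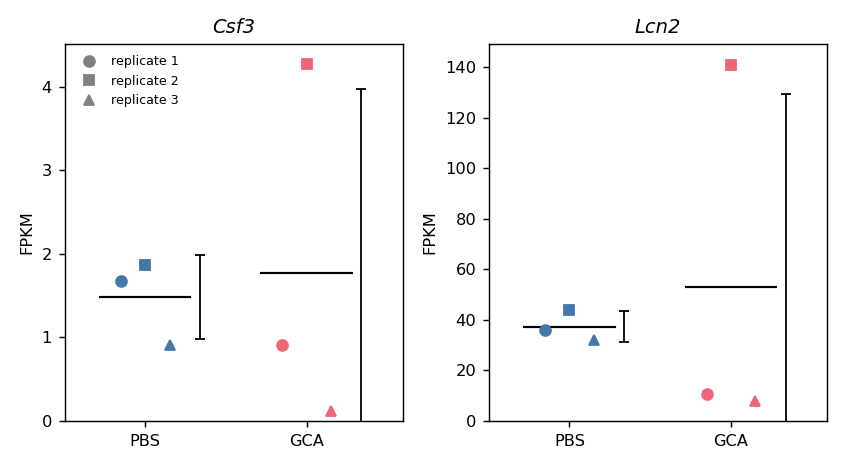
FPKM of Csf3 (left) and Lcn2 (right) in every library, axes from 0, with the mean and SD of 3 libraries (lower arms end at 0). GCA replicate 2 (square) is the highest point in both panels, at 4.28 and 141 FPKM.

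Il1a, Il1b and Tnf encode cytokines known to induce colony stimulating factors in stroma. Il1a rose from 0.333, 0.642 and 0.284 FPKM in PBS to 4.26, 2.83 and 2.45 in GCA, with no overlap (log2 fold change 1.54, SE 0.169, limma adjusted p = 0.00132). All its PBS values lay under 1 FPKM, so it passed the filter of 1 FPKM only through its GCA values. Il1b stayed at or under 0.239 FPKM in every library and was not tested. Tnf was at 22.6, 22.7 and 19.3 FPKM in PBS and 21.9, 20.9 and 8.15 in GCA, with its lowest value in GCA replicate 3, as for Csf3 (limma adjusted p = 0.472). Of the 8 tested genes in the list of such cytokines, their receptors and NF-κB subunits, Il1a rose, the interleukin 17 receptor chain Il17ra fell (6.92 ± 0.16 to 5.53 ± 0.59 FPKM) and 6 did not pass. The call of Il17ra was lost on leaving out any library but GCA replicate 2 (limma adjusted p from 0.0708 to 0.0945).

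Csf1r (ENSMUSG00000024621, chromosome 18, 61100598 to 61132149, plus strand) was the most abundant member. It was at 153, 155 and 149 FPKM in PBS and 166, 153 and 160 in GCA. GCA replicate 2 lay among the PBS libraries, so the groups overlapped. The log2 fold change was 0.06 (95% interval −0.04 to 0.17, limma adjusted p = 0.382). Exons of Hmgxb3, on the opposite strand, cover 873 bases (15.1%) of the Csf1r exons in the GENCODE M21 annotation. Hmgxb3 averaged 6.03 FPKM, and without known strand use the reads of the pair cannot be told apart there. The deposited Csf1r values fit a length of 4885 bases, not the 5774 of that annotation. Whether the overlapping stretch was counted is therefore not known.

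Csf1r (1.05-fold with GCA) was set beside Ptprc and Itgam, markers of the cells that usually carry it, neither of which passed. It was 10.6 to 12.8 times the level of Ptprc in the 6 libraries, and 3.596 to 4.18 times that of Itgam in PBS. Against Itgam it was 6.65, 3.75 and 6.21 times in GCA, where GCA replicate 2 again lay with the PBS libraries. Ratios to the macrophage markers that rose (9 of 18 tested) or fell (1 of 18) were not computed. The log2 ratio of Csf1 to Csf1r averaged −0.65 in the PBS libraries (SD 0.06, n = 3) and −0.69 in the GCA libraries (SD 0.15, n = 3). The difference was smaller than the spread between libraries (exact two-sided permutation p = 0.9, and 0.9 adjusted over the 2 balance values tested). With 3 libraries against 3 that test cannot go below 0.1.

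In the monocyte and macrophage marker list, 9 of 18 tested genes rose, 1 fell (Lyz2) and 8 did not pass, among them Ptprc, Itgam and Adgre1. The 9 that rose were Mrc1 (1.566-fold), Cd68 (1.537-fold), Aif1 (1.453-fold), Laptm5, Fcgr1, C1qc, C1qb, C1qa and Fcer1g (1.204-fold, the smallest). Over all genes tested, 11.5% were called higher and 6.43% lower. At an unadjusted p under 0.05, 2 markers of the list were lower. Cd14 did not pass (limma adjusted p = 0.0852), at 76.3 ± 3.80 FPKM in PBS and 41.3 ± 17.3 in GCA, with no overlap. Cx3cr1, under the filter, was at 0.524 to 1.05 FPKM in PBS and 0.249 to 0.333 in GCA. The receptor chains that rose did so by 1.25-fold (Csf2rb), 1.496-fold (Csf3r) and 1.56-fold (Csf2rb2). The summed list held 19031 to 21197 FPKM in PBS and 16544 to 17900 in GCA. Most of that sum was Lyz2, which fell from 13518 ± 814 to 8879 ± 806 FPKM. In the stromal list, 4 of 14 tested genes fell (Col1a2, Col3a1, Pdgfrb and Prrx1) and 10 did not pass, and the sum was 2917 to 3165 FPKM in PBS and 2540 to 2734 in GCA. Of 5 tested osteoclast markers, Nfatc1 (6.09 ± 0.16 to 7.32 ± 0.31 FPKM) and Atp6v0d2 (1.71 ± 0.23 to 3.11 ± 0.77) rose and 3 did not pass, and the sum was 114 to 123 FPKM in PBS and 120.1 to 152 in GCA. Mcpt8, a basophil protease and the 1 tested marker of eosinophils, basophils and mast cells, fell from 4.66 ± 0.95 to 1.52 ± 0.31 FPKM (limma adjusted p = 0.00191), with that list's sum at 4.20 to 6.11 FPKM in PBS and 2.11 to 2.74 in GCA. The part of these macrophage, stromal, osteoclast and basophil marker shifts in the receptor values was not tested.

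Csf2ra (ENSMUSG00000059326, chromosome 19, 61223957 to 61228429, minus strand), the alpha chain of the GM-CSF receptor, was at 67.97, 67.9 and 65.4 FPKM in PBS and 65.2, 66.003 and 62.04 in GCA. The groups overlapped, and the log2 fold change was −0.06 (95% interval −0.16 to 0.05, limma adjusted p = 0.412).

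The beta chains did differ. Csf2rb (ENSMUSG00000071713, chromosome 15, 78325752 to 78353847, plus strand) was at 11.3, 11.7 and 10.7 FPKM in PBS and 14.8, 14.4 and 13.1 in GCA, with every GCA library above every PBS library. Its log2 fold change was 0.30 (SE 0.060, limma adjusted p = 0.0123), and the call was narrowly lost without PBS replicate 3 (adjusted p = 0.0505). Csf2rb2 (ENSMUSG00000071714, chromosome 15, 78282507 to 78305721, minus strand) was at 4.91, 4.25 and 4.13 FPKM in PBS and 7.75, 6.44 and 6.5004 in GCA. Again no GCA value fell within the PBS range, and the log2 fold change was 0.54 (SE 0.085, limma adjusted p = 0.00499). It passed in all 17 alternatives run for it, at adjusted p from 0.00011 to 0.0308.

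The pair lies side by side on chromosome 15 and is nearly identical, so each gene's reads are uncertain. Over 2631 aligned bases, the coding sequences of transcripts ENSMUST00000096355.3 (Csf2rb) and ENSMUST00000096356.4 (Csf2rb2) in GENCODE M21 were 95.2% identical. Of all 150-base windows of the Csf2rb coding sequence, 6.49% also occur unchanged in a Csf2rb2 transcript, and the longest identical run was 242 bases. The stretch of 120 bases without a gap in which the genes differ most is shown because reads from there can be told apart. It holds 22 differences, in capitals. It covers coding bases 309 to 428 of Csf2rb (2 exons within chr15:78338898-78340471, plus strand) and 312 to 431 of Csf2rb2 (2 exons within chr15:78292838-78294433, minus strand).
Csf2rb: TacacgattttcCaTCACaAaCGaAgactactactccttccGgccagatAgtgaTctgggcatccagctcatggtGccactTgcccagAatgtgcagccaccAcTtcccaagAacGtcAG
Csf2rb2: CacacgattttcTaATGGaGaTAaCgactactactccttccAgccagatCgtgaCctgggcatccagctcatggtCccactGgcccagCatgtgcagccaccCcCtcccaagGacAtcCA

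Summed, the beta chains were at 16.2, 15.9 and 14.8 FPKM in PBS and 22.5, 20.9 and 19.6 in GCA. With the pair as 1 entry in the fit, an alternative chosen after seeing the data, the log2 fold change was 0.40 (SE 0.062, limma adjusted p = 0.00479). Csf2rb made up 69.7%, 73.3% and 72.2% of the pair in PBS and 65.6%, 69.1% and 66.8% in GCA. Every GCA share lay below every PBS share, with a mean GCA minus PBS difference of −4.57 percentage points (exact two-sided permutation p = 0.1, the smallest that 3 against 3 can give, and 0.2 adjusted over the 2 balance values). The ratio of the alpha chain Csf2ra to the summed beta chains had a mean of 4.29 in PBS (SD 0.11, n = 3) and of 3.08 in GCA (SD 0.16, n = 3), with no overlap between the groups. Because Csf2ra itself did not pass, this ratio restates the beta chain values above and is not a further difference.

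**Figure D3:**
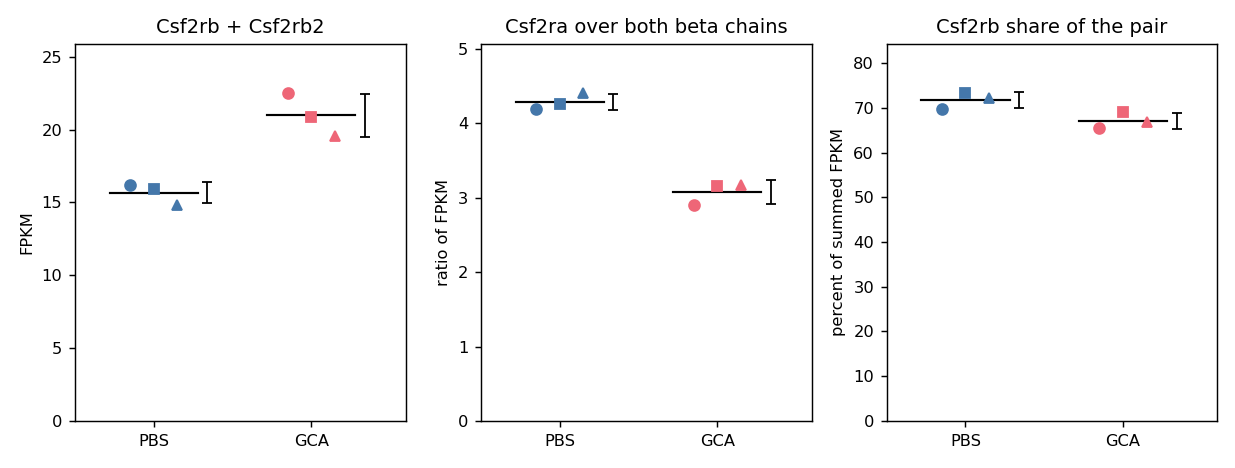
Per library, the summed FPKM of Csf2rb and Csf2rb2 (left), the ratio of Csf2ra to that sum (middle) and the share of Csf2rb in the pair (right), axes from 0, with mean and SD of 3 libraries; circles, squares and triangles are replicates 1, 2 and 3. The sum lies between 14.8 and 16.2 in PBS and between 19.6 and 22.5 in GCA.

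Il3ra, the IL-3 specific alpha chain that signals with both beta chains, was at 7.32, 6.31 and 5.78 FPKM in PBS and 9.08, 8.40 and 7.75 in GCA. It rose with no overlap (log2 fold change 0.34, SE 0.086, limma adjusted p = 0.0319), but the call was lost without any 1 of PBS replicates 2 and 3 and GCA replicates 1 and 2 (adjusted p = 0.0952, 0.0995, 0.101 and 0.0636). The ligands IL-3 and IL-5 gave little or nothing to compare. Il5 was at 0 in every PBS library and at most 0.109 FPKM in GCA, and Il3 was not found by symbol among the genes listed.

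Csf3r (ENSMUSG00000028859, chromosome 4, 126024550 to 126044440, plus strand), the G-CSF receptor, was at 9.35, 8.10 and 7.21 FPKM in PBS and 13.2, 13.6 and 10.1 in GCA. All GCA libraries lay above all PBS libraries, and the closest pair was PBS replicate 1 and GCA replicate 3. The means were 8.22 ± 1.07 and 12.3 ± 1.89 FPKM (SD, n = 3 each), with a log2 fold change of 0.52 (SE 0.123, limma adjusted p = 0.0266). The call was lost without any 1 of PBS replicates 2 and 3 and GCA replicates 1 and 2, at adjusted p = 0.0855, 0.0794, 0.087 and 0.0707.

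Neutrophil markers are given beside Csf3r because neutrophils carry it. Of 15 markers, 5 were not found by symbol among the genes listed, 5 were under the filter, and 5 were tested. Of those tested, 0 passed (0 also at an unadjusted p under 0.05, and 0 by limma-voom). Ly6g was at 0 in 5 libraries and 0.057 FPKM in GCA replicate 3, and Elane, Mpo, Prtn3 and Ctsg were at most 0.111, 0.017, 0.296 and 0.104 FPKM. The 5 tested had higher levels than these: Mmp8, a neutrophil collagenase, was at 9.21, 11.8 and 10.1 FPKM in PBS and 7.02, 10.3 and 7.67 in GCA, beside 7.21 to 13.6 for Csf3r over the 6 libraries, and Lcn2 was above Mmp8 in every library. S100a8 was at 1.05 to 4.02 FPKM, Camp at 0.941 to 1.70 and Mmp9 at 0.667 to 2.87 over the 6 libraries. The summed list held 46.95 to 62.2 FPKM in PBS and 19.5 to 159.5 in GCA, and most of its spread between libraries was that of Lcn2, at 7.77 to 141 FPKM. The part of neutrophil RNA in the Csf3r values was not tested.

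**Figure D4:**
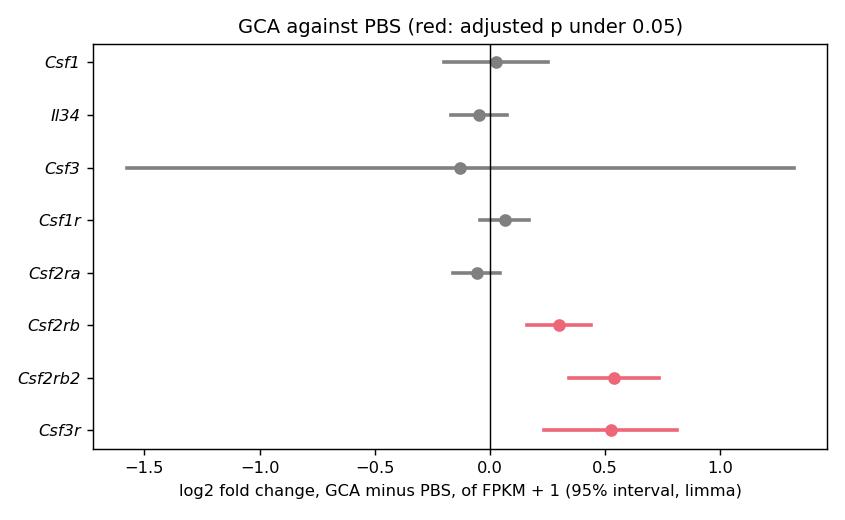
Log2 fold change of FPKM + 1, GCA minus PBS, with 95% intervals from limma, for the 8 genes tested. The intervals of Csf2rb, Csf2rb2 and Csf3r (red) lie above 0, and that of Csf3 runs from −1.58 to 1.32.

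RefSeq promoters on GRCm38.p6 were matched for 5 members: Csf1, Csf2, Csf2ra, Csf2rb2 and Csf3r. Those of Csf3r and Csf2rb2 are shown because both genes rose, with Csf2ra as a receptor gene that did not pass. Each runs from 250 bases before the annotated start to 50 after it, 5′ to 3′ on the gene's strand. Capitals mark GAGGAA, a core of the binding motif of PU.1, a transcription factor of myeloid receptor genes, on either strand.
Csf3r: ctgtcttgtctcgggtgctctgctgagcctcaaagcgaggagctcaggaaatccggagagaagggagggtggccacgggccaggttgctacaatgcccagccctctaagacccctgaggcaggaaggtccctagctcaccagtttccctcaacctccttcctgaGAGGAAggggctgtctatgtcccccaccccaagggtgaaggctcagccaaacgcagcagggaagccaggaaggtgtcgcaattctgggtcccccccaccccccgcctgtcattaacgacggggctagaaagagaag
Csf2rb2: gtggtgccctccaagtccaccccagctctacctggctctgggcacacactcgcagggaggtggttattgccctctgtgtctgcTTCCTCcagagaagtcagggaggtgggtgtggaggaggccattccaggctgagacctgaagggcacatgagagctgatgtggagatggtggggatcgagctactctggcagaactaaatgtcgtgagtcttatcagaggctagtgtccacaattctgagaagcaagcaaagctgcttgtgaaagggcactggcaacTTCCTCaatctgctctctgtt
Csf2ra: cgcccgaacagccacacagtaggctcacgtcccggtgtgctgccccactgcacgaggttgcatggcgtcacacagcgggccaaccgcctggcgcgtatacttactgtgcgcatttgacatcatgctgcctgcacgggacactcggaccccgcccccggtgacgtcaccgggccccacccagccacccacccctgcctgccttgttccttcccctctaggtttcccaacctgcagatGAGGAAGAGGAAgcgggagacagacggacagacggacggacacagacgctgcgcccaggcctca

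The windows are chr4:126024409-126024708 (plus strand), chr15:78305672-78305971 (minus) and chr19:61228369-61228668 (minus). GAGGAA occurred in 3 of the 5 members' promoters, the 3 shown, and in 28.3% of 27025 RefSeq promoters of the same length. The promoter of Csf2ra, which did not pass, holds the motif, as do those of Csf2rb2 and Csf3r; that of Csf2rb was not analysed here. A C/EBP motif, TTGCNNAA, occurred in the Csf2 promoter (10.8% of all promoters), and a STAT motif, TTCNNNGAA, in that of Csf2rb2, 15 to 7 bases before the start (8.47% of all). Both strands were searched for each motif, and matching letters are a description of the sequence, not a binding site.

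PU.1 itself, encoded by Spi1, was at 80.5, 80.9 and 75.3 FPKM in PBS and 79.1, 89.2 and 76.9 in GCA, which overlapped (limma adjusted p = 0.648). Over all genes tested, 11.5% were called higher and 6.43% lower. Of the 10 tested transcription factors in the list for myeloid receptor genes, 4 rose, 1 fell and 5 did not pass. Those that rose included Maf (44.98 ± 1.75 to 60.8 ± 3.45 FPKM), a factor of macrophage identity, Irf8 (17.1 ± 0.07 to 20.4 ± 0.60), a monocyte factor, and Id2 (28.1 ± 1.91 to 40.1 ± 2.99), an inhibitor of helix-loop-helix factors. Ets2 fell from 28.2 ± 3.72 to 14.0 ± 4.11 FPKM (limma adjusted p = 0.0379). The median log2 fold change of the list was 0.17, against 0.01 over all genes tested. Ets2 lost its call without PBS replicates 1, 2 and 3 and GCA replicate 1 in turn (limma adjusted p = 0.086, 0.0924, 0.0981 and 0.0967).

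Of the 22 genes of CSF1 receptor signal transduction, all tested, 2 rose (5 by limma-voom), 1 fell and the other 19 showed no call. Their median log2 fold change was −0.06. Over all genes tested, 11.5% were called higher (1618 of 11936 genes by limma-voom) and 6.43% lower. The adaptor Grb2 rose from 55.7 ± 2.42 to 70.8 ± 1.73 FPKM, and the PI3-kinase subunit Pik3cd from 16.7 ± 0.81 to 20.2 ± 1.84. Another PI3-kinase subunit, Pik3cb, fell from 4.59 ± 0.14 to 3.27 ± 0.16. The Pik3cd call (limma adjusted p = 0.0393) was lost on leaving out any library but GCA replicate 3, at adjusted p from 0.0633 to 0.127, and after quantile normalization (0.0538). The adaptor Tyrobp, at 439 to 507 FPKM in PBS and 463 to 488 in GCA, did not pass.

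Among the 7 JAK and STAT genes used by the CSF2 and CSF3 receptors, Tyk2 rose from 8.74 ± 0.35 to 10.9 ± 0.75 FPKM (limma adjusted p = 0.0152, but 0.058 without PBS replicate 2 and 0.0511 without GCA replicate 1) and 6 did not pass. Jak2, the kinase bound to the beta chain, was at 13.7 and 13.8 FPKM. Of 11 tested feedback and target genes of STAT3 and STAT5, 0 rose (1 at an unadjusted p under 0.05, 0 by limma-voom), 2 fell and 9 did not pass. Bcl6, a repressor, fell from 5.99 ± 0.42 to 3.53 ± 0.35 FPKM, and Ccnd2, a cyclin, from 52.7 ± 5.25 to 38.7 ± 2.95. The feedback inhibitor Socs3 was at 26.5, 28.1 and 26.3 FPKM in PBS and 32.4, 41.9 and 30.6 in GCA, which did not overlap but did not pass (limma adjusted p = 0.0656). Cish, a STAT5 target, was at most 0.384 FPKM.

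In the list of GM-CSF induced myeloid genes, 2 of 9 were tested. Chil3, a chitinase-like protein of macrophages, fell from 193 ± 15.1 to 70.7 ± 10.8 FPKM, and Pparg did not pass. The other 5 measured were under the filter: Ccl17 was at 0.109 to 0.214 FPKM in PBS and 0.333 to 1.04 in GCA, and Ccl22, Irf4, Itgax and Plet1 were each at most 0.209.

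Among enzymes and receptors that can act beside CSF1R, Sdc1 (syndecan 1), a proteoglycan reported to bind IL-34, fell from 51.2 ± 2.81 to 38.4 ± 0.93 FPKM (limma adjusted p = 0.00208). Adam17, which can shed CSF1R from the cell surface, was at 32.7 to 34.7 FPKM in PBS and 29.2 to 34.6 in GCA and did not pass. Ptprz1, another receptor of IL-34, was at most 0.429 FPKM.

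Other growth factors of blood cells mostly did not pass. Of 6 tested, Osm (oncostatin M) rose from 1.80 ± 0.22 to 3.37 ± 0.40 FPKM (log2 fold change 0.64, limma adjusted p = 0.0033), and 5 did not pass, including Kitl, Lif and Cxcl12. Of the 8 tested receptors of other growth factors, Il3ra rose, Cxcr4 fell from 38.1 ± 1.78 to 26.05 ± 3.09 FPKM, and 6 did not pass. Over the 77 distinct genes tested in all pathway lists, 10 rose and 8 fell, with a median log2 fold change of 0.02. That is 23.4% called, against 17.9% of all genes tested.

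**Figure D5:**
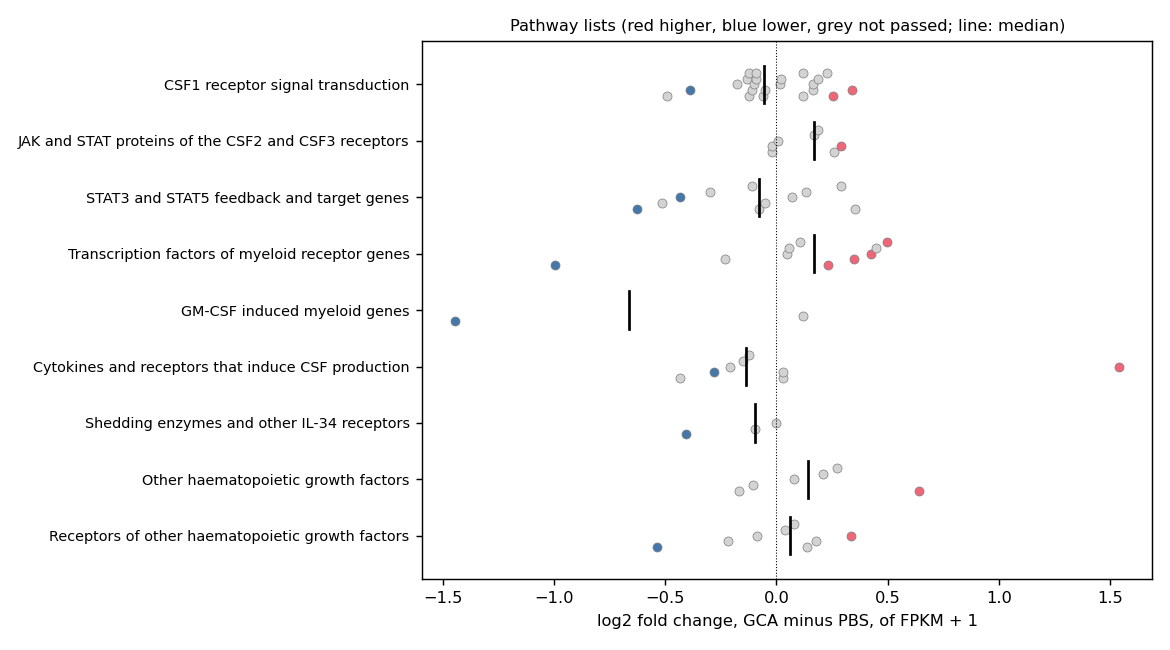
Log2 fold change of FPKM + 1, GCA minus PBS, for every tested gene of the 9 pathway lists; each point is a gene, red where called higher, blue where called lower, grey where not passed, and the vertical line is the list's median. The highest point is Il1a at 1.54 and the lowest is Chil3 at −1.44. Adding 1 FPKM understates the change of Il1a, whose mean was 0.42 FPKM in PBS and 7.57 times that in GCA. Chil3, with a mean of 193 FPKM in PBS, is hardly affected.

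The genes with the nearest profiles to the 3 called members were found by the root mean square difference over 6 libraries of log2(FPKM + 1), centred on each gene's mean, among 10865 named genes. Nearest to Csf2rb were Ctsz (0.018), Oas1g (0.022) and Sirpa (0.032). Nearest to Csf2rb2 were Dhx58 (0.043), Ralgds (0.043) and F10 (0.048). Nearest to Csf3r were Tnn (0.076), Tmem219 (0.078) and Aldh1b1 (0.082). The closest match was Ctsz, a lysosomal cathepsin, at 568 ± 20.3 FPKM in PBS and 694 ± 39.5 in GCA.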

How the data were processed

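The members and gene lists were chosen with earlier results of these data known. The deposited files give 1 value per Ensembl gene and library, with no unit in their headers. From the values deposited by the authors these are FPKM: multiplied by GENCODE M21 exon length, 91% of values above 0 were whole fragments within 0.02 over 1 total per library. A different whole-number length gave whole fragments for the rest of most tested genes, Csf1r, Csf2ra, Csf2rb and Csf2rb2 among them, so 99.6% of the 11984 tested genes were recovered. The aligner Bowtie 0.12.2 is named per the submitters' processing notes, which also list mm8 and mm9 as genomes. For counting, strand use and annotation: not given in the sources used here. Identifiers of 27204 of the 27263 genes matched GENCODE M21, whose GRCm38 coordinates are printed.

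The main test was limma 3.58.1 (R 4.3.3) with trend and robust moderation on log2(FPKM + 1), a minimum mean of 1 FPKM, treatment as the only term, two-sided, Benjamini-Hochberg adjusted. This scale understates changes of low genes. The fit was tested on simulated data. Alternatives were the replicate number as a block, other scalings, filters, pseudocounts, moderation and thresholds, limma-voom on recovered fragments (2722 genes called), protein-coding genes alone and leaving out each library. Named genes were the 9 members, list members past the threshold with examples, and the 3 nearest profiles of each called member. Intervals on fragments cover counting error only. Sequences were compared with Biopython 1.88. Values of 1 gene in the lists are not reported here.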

Additional observations from a re-analysis of the deposited data

How the results depend on the processing

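Over 16 to 18 alternatives per gene, the 8 members tested gave 136 values, of which 125 kept direction and call, 8 lost the call and 3 changed sign. The changes of sign were in genes that did not pass: Csf1 (log2 fold change −0.0063 after quantile normalization, −0.070 without GCA replicate 1, and −0.070 to 0.13 on leaving out 1 library) and Csf3 (−0.75 to 0.38 on leaving out 1 library). Members called higher were 3, but 1 with no filter on low values, 1 at a threshold of 0.01 and 1 to 3 on leaving out 1 library, with 1 remaining without PBS replicate 3. With no filter 27263 genes were tested, and Csf3r had an adjusted p of 0.0891 and Csf2rb 0.0507; with a filter at 0.1 FPKM Csf3r had 0.0521. Members called lower were 0 throughout.

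Genes called over the whole series were 1380 higher and 771 lower. They were 735 and 340 with no filter, and 591 and 246 at a threshold of 0.01, with 1258 lower at 0.10. On leaving out 1 library they were 842 to 1317 higher and 390 to 771 lower. All calls together were 2151, but 1308 when PBS replicate 2 was left out, 1232 for PBS replicate 3 and 1375 for GCA replicate 1. The share of higher calls was 64.2%, and 53.8% after quantile normalization. Pathway list genes were 10 higher and 8 lower, 6 and 5 with no filter, and 6 to 13 higher and 6 to 12 lower on leaving out 1 library, with 6 higher without PBS replicate 2. The difference in the log2 ratio of Csf1 to Csf1r was −0.11 to 0.04, and that of the Csf2rb share −5.57 to −3.77 percentage points, on leaving out 1 library.

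The labels number replicates 1 to 3 in both groups without saying that numbers pair cultures. Same-numbered libraries deviated together only weakly (r = 0.082, 0.029 and 0.068 across genes). These were still the highest values of all pairs. The others ran from −0.082 (PBS replicate 1 with GCA replicate 3) to 0.023 (PBS replicate 2 with GCA replicate 3). Whether the numbers pair cultures cannot be told from these values. With the replicate block 1334 genes were higher and 760 lower, 3 members stayed higher, and Csf3r had an adjusted p of 0.00331. At these depths a gene of 800 bases such as Csf2 cannot be compared below about 0.2 FPKM.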
